A study of Mus musculus with 8 samples.

Results

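The ADAM, ADAMTS and ADAMTSL genes encode metalloproteinases and their relatives, and their transcripts were followed here in osteoblasts treated with parathyroid hormone (PTH) or vehicle. Genes were chosen by name, with earlier results of these data known. Every gene of the count table whose symbol is Adam, Adamts or Adamtsl followed by a number was taken. This gave 57 of the 47706 genes listed. These were 33 ADAM, 19 ADAMTS and 5 ADAMTSL genes. RNA was sequenced from 4 PTH-treated and 4 vehicle-treated samples of mouse primary calvarial osteoblasts, which are bone-forming cells released by collagenase from the skullcap of newborn mice. All 8 samples were differentiated for 7 days before treatment for 24 hours. Their titles begin with "Con", which the labels do not spell out, and the labels give no strain, genotype or pooling of animals. The labels name an adipogenic differentiation, whereas the series' design text and the paper's methods describe osteoblast cultures in osteogenic medium. The labels also do not say whether the samples of a treatment came from separate cultures or animals, so that the p-values measure the spread between these samples, which may be technical.

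Total counts lay between 33605610 and 56090654 per sample. The main axis of variation, with 62.8% of the variance, separated PTH from vehicle, and the next axis, with 10.3%, spread the PTH-treated samples in the order of their total counts, with replicate 1 and replicate 2 at its ends. All 8 osteoblast markers (Col1a1, Sp7, Bglap and others) were detected, and their summed level lay between 43773 and 60766 CPM (counts scaled to library size), most of it Col1a1. Of the 8, 3 fell with PTH and 0 rose, beside 22.5% and 23.3% of all genes tested. Sp7 was 3.42-fold, Dmp1 2.18-fold and Runx2 1.26-fold lower, and Alpl, Col1a1, Ibsp, Bglap and Spp1 were not differentially expressed. The summed level of 6 genes listed as adipocyte markers lay between 86.5 and 95.5 CPM with vehicle and between 126 and 145 CPM with PTH. Most of it was Adipor2 (means of 64.1 and 102 CPM), the only one that rose. Adipoq, Plin1, Cidec, Fabp4 and Lep each overlapped between the treatments, and Adipoq and Plin1 stayed below 10 CPM in both treatment means. That of 9 macrophage and osteoclast markers lay between 1438 and 1935 CPM with vehicle and between 2054 and 2324 CPM with PTH, where Lyz2 was the marker that was differentially expressed. Taken alone, each of these 9 overlapped between the treatments. In RNA from whole cultures, a change in the number of cells of a type and a change in the RNA of each cell cannot be told apart.

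ADAM proteins are anchored in the cell membrane, and many of them cut the extracellular part of growth factors, cytokines and receptors from the cell surface, a process called shedding. ADAMTS proteins carry thrombospondin repeats, are secreted, and act on the matrix: members cleave the large proteoglycans aggrecan and versican, remove the N-terminal propeptides of fibrillar collagens, or associate with fibrillin microfibrils. ADAMTSL proteins resemble the ancillary part of ADAMTS enzymes but lack the protease domain. In bone, PTH acts on osteoblasts through a receptor that raises cyclic AMP, and cyclic AMP-regulated transcription factors bind the cAMP response element, whose core is TGACGTCA.

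The promoters of Adamts1, Adamts9 and Adamtsl2 are shown because these genes were among the 4 that rose by more than 3-fold, as described later. RefSeq windows of 250 bases before to 50 bases after a transcription start (GRCm38.p6) were found for 31 of the 57 genes, and none was found for Adamts4, Adamts5, Adamts15, Adamts16 or Adam9. The 250 bases before the start are given 5′ to 3′ on the strand of the gene, in lower case, with TGACG, the shorter core motif of the cAMP response element, in capitals where it was found.
Adamts1 (chr16:85803114-85803363, minus strand): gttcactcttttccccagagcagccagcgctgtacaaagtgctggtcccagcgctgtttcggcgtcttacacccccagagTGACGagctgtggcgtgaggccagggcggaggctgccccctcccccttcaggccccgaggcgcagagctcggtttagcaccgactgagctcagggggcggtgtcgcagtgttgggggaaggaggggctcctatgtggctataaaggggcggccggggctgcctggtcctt
Adamts9 (chr6:92943535-92943784, minus strand): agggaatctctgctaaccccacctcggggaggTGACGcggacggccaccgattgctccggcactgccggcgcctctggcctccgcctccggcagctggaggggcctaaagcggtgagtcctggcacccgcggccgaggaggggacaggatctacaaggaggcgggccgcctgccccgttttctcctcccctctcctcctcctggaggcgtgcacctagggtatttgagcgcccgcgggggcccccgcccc
Adamtsl2 (chr2:27079129-27079378, plus strand): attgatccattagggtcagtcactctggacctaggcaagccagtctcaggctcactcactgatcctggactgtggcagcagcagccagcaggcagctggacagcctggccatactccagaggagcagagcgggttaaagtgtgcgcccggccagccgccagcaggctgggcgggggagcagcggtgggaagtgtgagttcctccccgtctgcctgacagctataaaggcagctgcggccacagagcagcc
This motif begins 170 bases before the start of Adamts1 and 218 bases before that of Adamts9. Searched on both strands of the whole 300-base windows, TGACG, which the full element contains, was present for 6 of the 31 genes (Adam10, Adamts1, Adamts3, Adamts9, Adamts12 and Adamtsl3) and in 20.8% of all 32851 windows of the table. Of these 6 genes, all of which were tested, Adamts1 and Adamts9 rose with PTH, a share of few genes to be read beside the 23.3% of all tested genes that rose. The full element TGACGTCA was in none of the 31 genes' windows and in 1.79% of all windows. The AP-1 motif TGANTCA was present for 5 genes (Adam19, Adam1b, Adam20, Adam25 and Adam29) and in 7.81% of all windows, and only Adam19 and Adam1b of these 5 had enough counts to be tested, of which Adam19 rose.

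Of the 57 genes, 37 passed the filter on low counts and were tested (15 ADAM, 17 ADAMTS and 5 ADAMTSL). With edgeR's quasi-likelihood test and an adjusted p under 0.05, 9 of the 37 rose with PTH and 3 fell, which is 24.3% and 8.11%, beside 23.3% and 22.5% of all 16736 genes tested. In either direction 32.4% of the tested members were differentially expressed, beside 45.8% of all genes. The treatments did not overlap for 11 of the 37, or 29.7%, beside 43.0% of all genes. A change of at least 2-fold that passed the test was seen for 6 genes, all of them higher with PTH, or 16.2%, beside 7.36% of all genes that rose and 3.88% that fell by that much. The median log2 fold change was 0.12 over the 37 genes and -0.00081 over all genes. By family, 3 ADAM genes rose (Adam8, Adam9 and Adam19) and 1 fell (Adam17), 5 ADAMTS genes rose (Adamts1, Adamts4, Adamts9, Adamts15 and Adamts16) and 2 fell (Adamts5 and Adamts7), and 1 ADAMTSL gene rose (Adamtsl2). Some of these counts changed when a library was left out. Without PTH replicate 1 the counts became 5 ADAM genes higher, 3 ADAM genes lower and 5 ADAMTS genes lower. Without PTH replicate 3 no ADAM gene was lower, 1 ADAMTS gene was lower and 2 ADAMTSL genes were higher, and without vehicle replicate 2 there was 1 ADAMTS gene lower.

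**Figure D1:**
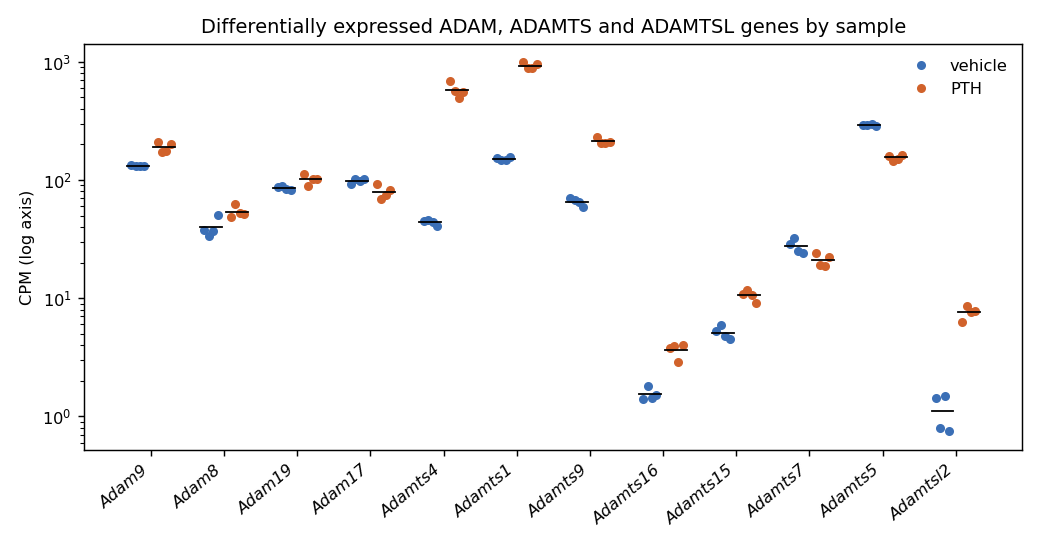
CPM on a log axis of the 12 differentially expressed genes, with 1 point for each sample (4 vehicle in blue, 4 PTH in orange) and a line at the mean of each treatment. The treatments lie farthest apart for Adamts4 (13.1-fold), followed by Adamtsl2 (6.78-fold) and Adamts1 (6.16-fold), the points of Adamts5 lie lower with PTH, and those of Adam8, Adam17 and Adamts7 overlap.

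Of the 7 ADAMTS genes whose products cleave aggrecan and versican, 4 rose and 1 fell. These are 57.1% and 14.3%, beside 23.3% and 22.5% of all genes tested. The 7 genes include the largest increase (Adamts4) and the largest decrease (Adamts5) among the 37 genes. Adamts4, an aggrecan-cleaving enzyme known as aggrecanase-1, stood at 45.0, 45.6, 44.0 and 41.1 CPM in vehicle replicates 1 to 4 and at 686, 571, 498 and 552 CPM in PTH replicates 1 to 4. Every PTH-treated sample thus lay above every vehicle-treated one, and the spread among the PTH-treated samples was small beside the gap. Adamts4 was 13.1-fold higher with PTH (log2 fold change 3.72 ± 0.103 SE, adjusted p = 6.2e-11), and its log2 fold change ranked at position 162 from the highest among the 16736 genes. Adamts4 lies at chr1:171250421-171260637 on the plus strand (GRCm38).

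Adamts1, a secreted protease that cleaves versican and aggrecan, was per length the most abundant of this group with PTH. It stood at 155, 146, 147 and 156 CPM with vehicle and at 988, 878, 889 and 962 CPM with PTH. No PTH-treated sample came near the vehicle range. The increase was 6.16-fold (log2 fold change 2.62 ± 0.0726 SE, adjusted p = 6.2e-11), at position 318 from the highest.

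Adamts9, a versican- and aggrecan-cleaving enzyme that is widely expressed during development, showed 70.9, 67.4, 64.8 and 59.1 CPM with vehicle and 232, 206, 205 and 211 CPM with PTH. The ranges were again far apart, and the increase was 3.26-fold (log2 fold change 1.70 ± 0.0738 SE, adjusted p = 3.3e-09). On the opposite strand, 1381 exon bases of Adamts9 are shared with A730049H05Rik, which had 4, 0, 12 and 2 counts with vehicle and 42, 121, 86 and 71 counts with PTH (adjusted p = 3.21e-04). The strand setting of the counting is not given in the sources used here, so that reads of the shared bases cannot be assigned to either gene, but its counts were a small fraction of those of Adamts9.

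Adamts15, another versican-cleaving member, was lower in abundance, at 5.22, 5.90, 4.78 and 4.48 CPM with vehicle and 10.8, 11.7, 10.7 and 9.01 CPM with PTH. All PTH-treated samples were above the vehicle range, with a 2.07-fold increase (log2 fold change 1.05 ± 0.127 SE, adjusted p = 3.42e-05). Adamts8 and Adamts20 were not differentially expressed. Adamts8 had a mean of 11.8 CPM with vehicle and 11.6 CPM with PTH (log2 fold change -0.02 ± 0.147 SE). Adamts20 had 19 to 43 counts with vehicle and 22 to 63 counts with PTH (log2 fold change 0.93 ± 0.377 SE, adjusted p = 0.0623).

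Adamts5, or aggrecanase-2, was the gene of this group that fell. Its level was 293, 292, 297 and 287 CPM with vehicle and 160, 146, 151 and 164 CPM with PTH. The vehicle-treated samples were nearly alike, and all PTH-treated samples lay far below them. The decrease was 1.88-fold (log2 fold change -0.91 ± 0.0619 SE, adjusted p = 1.87e-07). Adamts5 and Adamts1 are neighbours on chromosome 16, both on the minus strand, at chr16:85856173-85901828 and chr16:85793827-85803113, with a gap of 53.1 kb, and they changed in opposite directions. Adamts15 and Adamts8 lie on opposite strands of chromosome 9 with a gap of 20.1 kb, and of these Adamts15 rose and Adamts8 was not differentially expressed.

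Levels of these 7 genes were compared with each other per length, as CPM per kb of merged exons (GENCODE M21), a measure that counts the exons of every annotated isoform. The summed level of the group was 72.1 ± 1.18 CPM per kb (SD, n = 4) with vehicle and 327 ± 26.5 CPM per kb (SD, n = 4) with PTH, with sample ranges of 71.0 to 73.8 and 302 to 364. Adamts1 and Adamts5 made up most of the vehicle sum, with mean shares of 39.5% and 37.5%. With PTH the mean share of Adamts1 was 53.6% and that of Adamts5 was 4.40%. The share of Adamts4 lay between 12.0% and 13.2% with vehicle and between 34.3% and 39.3% with PTH. Adamts9 had a mean share of 6.04% with vehicle and 4.34% with PTH, although its own level rose.

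**Figure D2:**
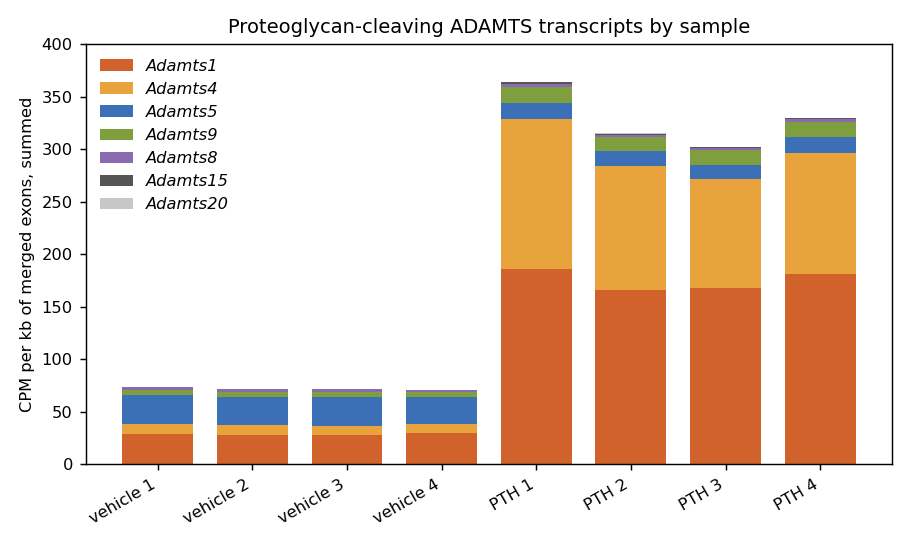
Summed level per length (CPM per kb of merged exons, from 0) of the 7 proteoglycan-cleaving ADAMTS genes in each of the 8 samples, with 1 colour for each gene. The vehicle bars reach 71.0 to 73.8 and are mainly Adamts1 and Adamts5, and the PTH bars reach 302 to 364 and are mainly Adamts1 and Adamts4.

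The genes of the procollagen N-proteinases, the enzymes that trim fibrillar procollagens for assembly, were not differentially expressed (0 of 3 by edgeR, 1 of them at an unadjusted p under 0.05, and 0 by DESeq2). By edgeR 45.8% of all genes tested were differentially expressed, and these 3 genes are too few to compare with that share. Adamts2, the best known of them, had 418, 415, 418 and 374 CPM with vehicle and 486, 333, 364 and 406 CPM with PTH. The PTH-treated samples lay on both sides of the vehicle range (log2 fold change -0.03 ± 0.106 SE, adjusted p = 0.83). Adamts14 had means of 28.0 and 29.0 CPM. Adamts3 had 5.81 to 7.45 CPM with vehicle and 7.67 to 9.27 CPM with PTH, without overlap, but did not pass the test (log2 fold change 0.27 ± 0.122 SE, adjusted p = 0.0863).

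Of the other ADAMTS genes, Adamts7 and Adamts12 encode enzymes that cleave cartilage oligomeric matrix protein (COMP). Adamts7 had 28.5, 32.6, 25.1 and 24.1 CPM with vehicle and 24.3, 19.3, 18.8 and 22.1 CPM with PTH. PTH replicate 1 lay within the vehicle range, and the difference was 1.30-fold lower with PTH (log2 fold change -0.38 ± 0.114 SE, adjusted p = 0.016). The call was lost without vehicle replicate 2 (adjusted p = 0.0569) and without PTH replicate 3 (adjusted p = 0.0531). On the opposite strand, 122 exon bases of Adamts7 overlap Tbc1d2b, whose log2 fold change was -0.07. Adamts12 had means of 113 and 97.8 CPM and did not pass the test (adjusted p = 0.226).

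Adamts16, a less studied secreted member, had 1.41, 1.79, 1.42 and 1.51 CPM with vehicle and 3.78, 3.97, 2.87 and 4.02 CPM with PTH. Its level was low, but the treatments did not overlap, and it was 2.39-fold higher with PTH (log2 fold change 1.26 ± 0.194 SE, adjusted p = 2.28e-04). The fibrillin-associated genes Adamts6 and Adamts10 and the genes Adamts17 and Adamts18 had log2 fold changes between -0.41 and -0.16, none of which passed the test. Adamts6 lay at 17.4 to 19.9 CPM with vehicle and at 9.79 to 16.6 CPM with PTH, without overlap, with PTH replicate 1 far below the other PTH-treated samples. Adamts13, which cleaves von Willebrand factor, had at most 5 counts in a sample, and Adamts19 had at most 2, and neither was tested.

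**Figure D3:**
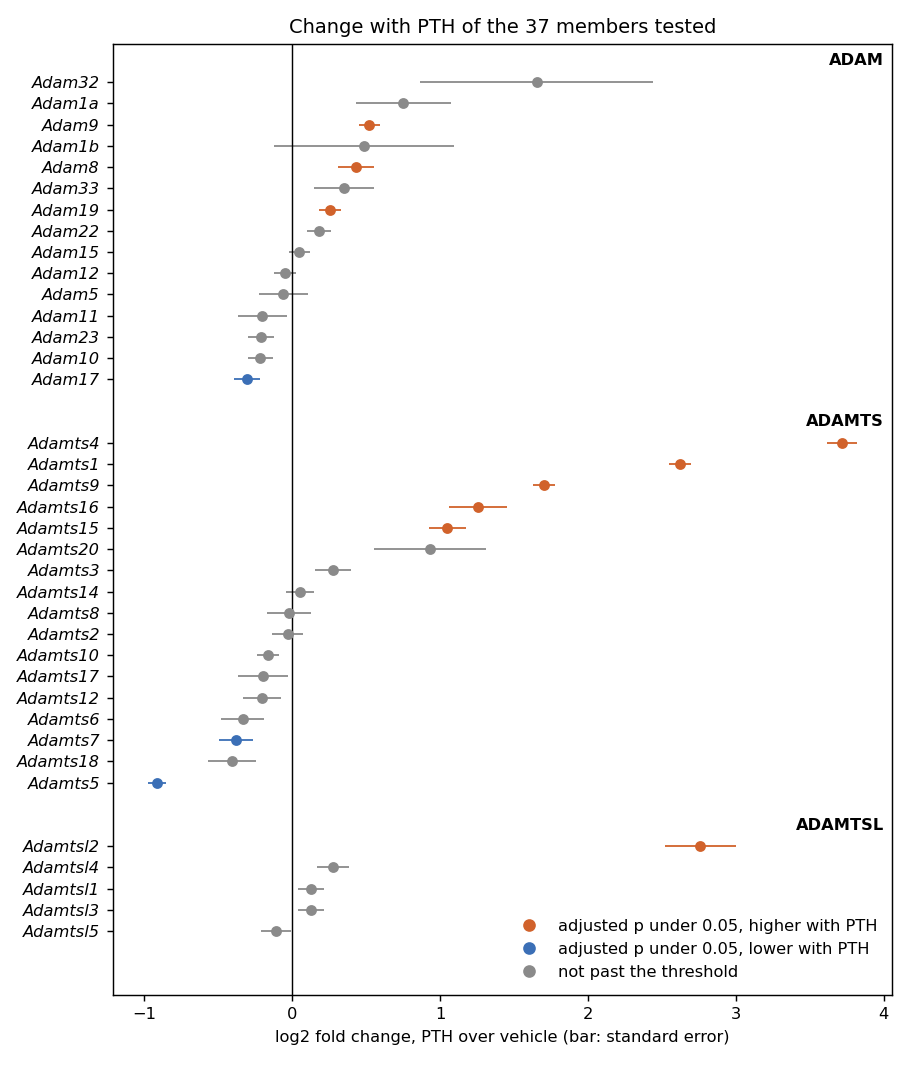
Log2 fold change of PTH over vehicle for the 37 genes tested, by family, with the standard error as a bar and colour for genes past an adjusted p of 0.05. The tested ADAMTS genes span -0.91 to 3.72 and the tested ADAM genes -0.30 to 1.65. Past the threshold, ADAMTS genes lie between -0.91 and 3.72 and ADAM genes between -0.30 and 0.52.

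Among the ADAM genes, 9 were listed here as expressed sheddases, so that it is no result that 8 had enough counts to be tested. Of these 8, 3 rose and 1 fell, all by less than 2-fold. In either direction 50% of the 8 were differentially expressed, near the 45.8% of all genes tested. Adam9, a widely expressed sheddase, had 134, 131, 132 and 131 CPM with vehicle and 208, 173, 175 and 200 CPM with PTH. The PTH-treated samples all lay above the narrow vehicle range, and the increase was 1.44-fold (log2 fold change 0.52 ± 0.072 SE, adjusted p = 9.64e-05). Adam9 lies at chr8:24949611-25016927 beside Adam32 and Adam5, which stood at a few CPM or less and were not differentially expressed.

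Adam19, also called meltrin beta, had 86.6, 88.2, 83.3 and 81.8 CPM with vehicle and 113, 89.7, 101 and 102 CPM with PTH. PTH replicate 2 was just above the highest vehicle value, and the increase was 1.19-fold (log2 fold change 0.25 ± 0.0726 SE, adjusted p = 0.0127). The call was lost without vehicle replicate 4 (adjusted p = 0.0515) and with no filter on low counts (adjusted p = 0.0608).

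Adam8, a sheddase known from myeloid cells and osteoclasts, had 37.6, 33.4, 36.8 and 50.8 CPM with vehicle and 48.3, 62.2, 52.6 and 51.1 CPM with PTH. Vehicle replicate 4 lay within the PTH range, and the difference was 1.35-fold (log2 fold change 0.43 ± 0.124 SE, adjusted p = 0.0131). The summed level of the 9 macrophage and osteoclast markers, of which 1 rose and 0 fell, was also higher in every PTH-treated sample than in any vehicle-treated one, as given above. Lyz2, with means of 914 and 1417 CPM, was the largest part of this sum, and each of the 9 markers overlapped between the treatments. Vehicle replicate 4 was the highest vehicle sample for Csf1r, Adgre1, Cd68, Ptprc, Lyz2, C1qa and Ocstamp, as for Adam8, and the lowest for Ctsk and Acp5. The part of such cells in the difference of Adam8 was not tested.

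Adam17, the enzyme that sheds tumor necrosis factor and several ligands of the epidermal growth factor receptor, had 92.6, 102, 97.5 and 103 CPM with vehicle and 92.9, 69.2, 74.6 and 82.6 CPM with PTH. PTH replicate 1 was within the vehicle range and the other PTH-treated samples were below it. The decrease was 1.23-fold (log2 fold change -0.30 ± 0.0873 SE, adjusted p = 0.0133), and the call was lost without PTH replicate 3 (adjusted p = 0.052). On the opposite strand, 311 exon bases of Adam17 overlap Iah1, which had a log2 fold change of -0.10 and was not differentially expressed.

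Adam10, which cuts Notch receptors and many other membrane proteins, had 152, 156, 156 and 162 CPM with vehicle and 154, 120, 119 and 145 CPM with PTH. PTH replicate 1 lay within the vehicle range, and the difference did not pass the test (log2 fold change -0.22 ± 0.0857 SE, adjusted p = 0.0579). Without PTH replicate 1 it did (log2 fold change -0.29, adjusted p = 0.00862). Adam12 and Adam15 had log2 fold changes of -0.05 and 0.05, with standard errors of 0.0734 and 0.0725. Adam33 had 30.3 to 31.7 CPM with vehicle and 24.8, 61.0, 35.4 and 37.1 CPM with PTH, a wider spread than any other sheddase gene showed (adjusted p = 0.179).

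The genes Adam11, Adam22 and Adam23 encode ADAM proteins without a complete catalytic site that act in cell adhesion, and 0 of 3 were differentially expressed by edgeR or by DESeq2, with 2 of them at an unadjusted p under 0.05 by edgeR. Adam23 was the most abundant of them per length. It stood at 462 to 509 CPM with vehicle and 362 to 478 CPM with PTH (log2 fold change -0.21 ± 0.0858 SE, adjusted p = 0.0637). Among the 21 other ADAM genes, many of them known from the testis, 4 were tested and 0 were differentially expressed by edgeR or by DESeq2, with 1 of them at an unadjusted p under 0.05 by edgeR. Both counts of 0 rest on few genes and are to be read beside the 45.8% of all genes tested by edgeR. The 4 tested genes were Adam5, at 2.95 to 4.06 CPM over all samples, and Adam1a, Adam1b and Adam32, which had at most 112, 22 and 28 counts in a sample. Adam32 had 16, 2, 15 and 0 counts with vehicle and 27, 27, 28 and 9 counts with PTH, and its log2 fold change of 1.65 ± 0.786 SE, the highest of the ADAM genes, did not pass the test (adjusted p = 0.108). Adam1a and Adam1b share a stretch of 1205 bases at 99.7% identity, and the exons of Adam1a overlap those of Mapkapk5 and Gm42878 on the same strand, so that their counts are uncertain.

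The 20 genes that were not tested had at most 15 counts in a sample. Of these, 12 had no count in any sample (Adam6a, Adam6b, Adam7, Adam20, Adam24, Adam25, Adam26a, Adam26b, Adam29, Adam30, Adam34 and Adam39), and a count of 0 allows up to 3 counts, or 0.0903 CPM in the smallest library. This limit covers counting error only. The other 8 were Adam2, Adam3, Adam4, Adam18, Adam21, Adam28, Adamts13 and Adamts19.

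The ADAMTSL family was described by all 5 of its genes. Adamtsl2, whose product binds fibrillin and latent TGF-beta binding protein in the matrix, had 1.43, 0.80, 1.48 and 0.75 CPM with vehicle and 6.28, 8.64, 7.62 and 7.77 CPM with PTH. The lowest PTH value was several times the highest vehicle value, and the increase was 6.78-fold (log2 fold change 2.76 ± 0.237 SE, adjusted p = 1.62e-06), at position 287 from the highest. Adamtsl1, Adamtsl3, Adamtsl4 and Adamtsl5 were more abundant per length, and their vehicle-treated samples lay between 22.9 and 142 CPM. Their log2 fold changes lay between -0.11 and 0.28, and none passed the test, with Adamtsl4 nearest to it (adjusted p = 0.0543).

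Per length, Adamts2 had the highest level of all the genes with vehicle, at 43.5 ± 2.32 CPM per kb (SD, n = 4). Adam9 (32.0 ± 0.315), Adam10 (31.8 ± 0.800) and Adam15 (31.3 ± 1.26) followed, and these 3 levels did not differ beyond their spread. Adamts1 (28.5 ± 0.932) and Adamts5 (27.1 ± 0.367) were at positions 5 and 7 of the order. With PTH the order was led by Adamts1, at 175 ± 10.2 CPM per kb, and Adamts4, at 120 ± 16.5 CPM per kb, which had been at position 14 with vehicle. Adam9 (46.0 ± 4.30) and Adamts2 (42.5 ± 7.12) came next and did not differ beyond their spread, and Adamts5, at 14.4 ± 0.767 CPM per kb, was at position 10. The summed level of the ADAMTS genes was 156 ± 4.67 CPM per kb with vehicle and 406 ± 35.1 with PTH, and that of the ADAM genes was 185 ± 2.14 and 196 ± 13.7.

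**Figure D4:**
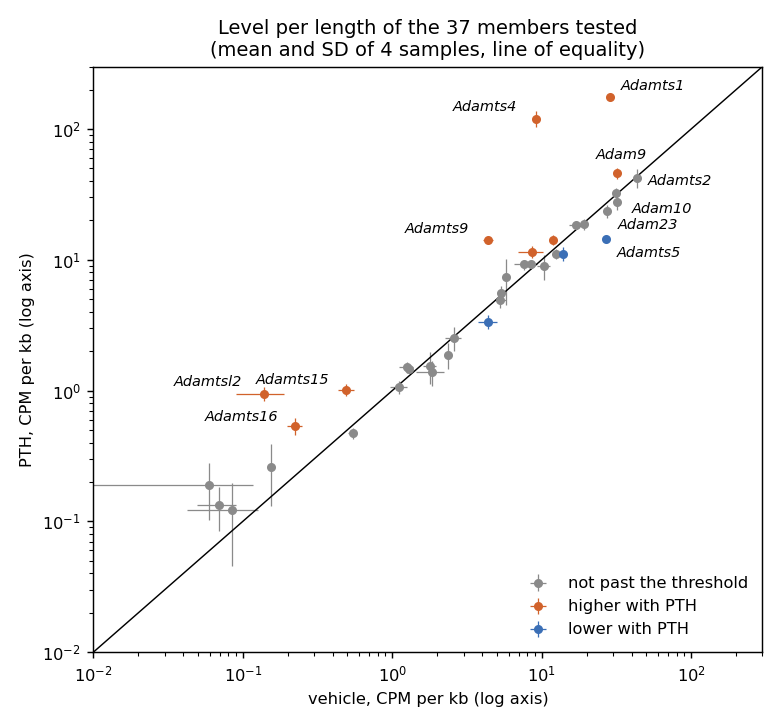
Mean level per length (CPM per kb, log axes) of the 37 tested genes with PTH against vehicle, with the SD of 4 samples as bars and the line of equality, where SD bars that would reach 0 are shortened at the axis. Adamts1 and Adamts4 stand far above the line at 175 and 120 CPM per kb, and Adamts5 lies below it at 14.4.

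The spread between samples was wider with PTH. Over the 27 genes whose mean reached 10 CPM, the median coefficient of variation was 5.34% with vehicle and 11.5% with PTH, and it was larger with PTH for 21 genes. PTH replicate 1 was the highest and replicate 2 the lowest PTH value for 14 of the 37 genes (37.8%, beside 17.1% of all genes tested), among them Adamts1, Adamts2, Adam9, Adam12, Adam15 and Adam17. The reverse order was seen for 7 genes (18.9%, beside 17.5% of all genes).

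A list of 51 related genes covers what acts on these proteases or is acted on by them. Of 48 tested, 17 rose and 7 fell, or 35.4% and 14.6%, beside 23.3% and 22.5% of all genes tested. The list was chosen with earlier results of these data known, so that these shares are no test of the list. Tissue inhibitors of metalloproteinases and the membrane inhibitor Reck made up 5 genes, of which 1 rose and 1 fell. Each is 20% of the list, near the 23.3% and 22.5% of all genes tested. Timp1 rose by a log2 fold change of 0.97 ± 0.0878 SE (adjusted p = 2.6e-06), with 173 ± 19.1 CPM for vehicle and 338 ± 24.9 CPM for PTH (SD, n = 4), and its samples did not overlap. Reck was at 131 ± 10.1 CPM with vehicle and at 96.8 ± 14.0 CPM with PTH, and it fell (log2 fold change -0.44 ± 0.0989 SE, adjusted p = 0.00337). Timp3, the main inhibitor of ADAMTS4, ADAMTS5 and ADAM17, had means of 643 and 606 CPM and was not differentially expressed (adjusted p = 0.334).

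Proprotein convertases remove the propeptide that keeps these enzymes inactive. Of these, 2 of 4 rose (50%, beside 23.3% of all genes tested), Pcsk5 (log2 fold change 0.25, adjusted p = 0.0218) and Pcsk7, while Furin was not differentially expressed. The partners that guide ADAM17 and ADAM10 to the cell surface comprise iRhoms, Frmd8 and tetraspanins, of which 1 of 8 tested rose and 2 fell. These are 12.5% and 25%, beside 23.3% and 22.5% of all genes tested. Tspan14, a tetraspanin that associates with ADAM10, had the largest decrease (log2 fold change -0.54, adjusted p = 4.39e-04), and the iRhom gene Rhbdf1 also fell. Frmd8, which stabilizes iRhom complexes, was the partner that rose, by a log2 fold change of 0.22 (adjusted p = 0.0475). Lrp1, the endocytic receptor that clears ADAMTS4 and ADAMTS5, rose by a log2 fold change of 0.63 ± 0.103 SE, with 755 ± 92.9 CPM with vehicle and 1167 ± 122 CPM with PTH (adjusted p = 3.65e-04).

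Of 11 tested genes for matrix proteins that ADAMTS or ADAMTSL proteins cut or bind, 3 rose and the other 8 did not pass the test. The share that rose was 27.3%, beside 23.3% of all genes tested. Acan, which encodes aggrecan, had the largest change, with means of 11.4 CPM with vehicle and 23.2 CPM with PTH (log2 fold change 1.03 ± 0.135 SE, adjusted p = 6.45e-05). Vcan and Col2a1, which encode versican and type II collagen, were the others that rose, whereas Comp, Fbn1, Fbn2, Col1a1, Col1a2 and Col3a1 were not differentially expressed. Acan and Col2a1 are also 2 of the 6 chondrocyte markers, whose summed level lay between 319 and 336 CPM with vehicle and between 372 and 490 CPM with PTH. Most of that sum was Col2a1, with means of 226 CPM with vehicle and 307 CPM with PTH. The markers Sox9, Col9a1 and Col10a1 were not differentially expressed, and Matn1 had too few counts to be tested.

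The list of proteins that ADAM sheddases release holds 17 genes, of which 9 rose and 4 fell. These are 52.9% and 23.5%, beside 23.3% and 22.5% of all genes tested, in a list chosen with earlier results known. Areg, which encodes the growth factor amphiregulin, had 0, 0, 0 and 2 counts with vehicle and 199, 76, 120 and 101 counts with PTH, so that it was nearly undetected without the hormone. Tnfsf11, which encodes the osteoclast-inducing ligand RANKL and is named here for its size, after its values were seen, had 0.987 to 1.79 CPM with vehicle and 115 to 157 CPM with PTH (log2 fold change 6.48 ± 0.173 SE, adjusted p = 4.28e-11). Hbegf, Tnf, Tnfrsf1a, Tnfrsf1b, Cx3cl1, Tgfa and Notch1 were the others that rose. Dll1, a Notch ligand, was at 1.08 ± 0.209 CPM with vehicle and 0.280 ± 0.0230 CPM with PTH and fell (log2 fold change -1.94 ± 0.331 SE, adjusted p = 4.95e-04), and Csf1, Notch2 and Cdh2 also fell. Of the 3 relatives whose symbols lack the name pattern, Thsd4 and Papln were tested and not differentially expressed, and Adamdec1 had no count.

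**Figure D5:**
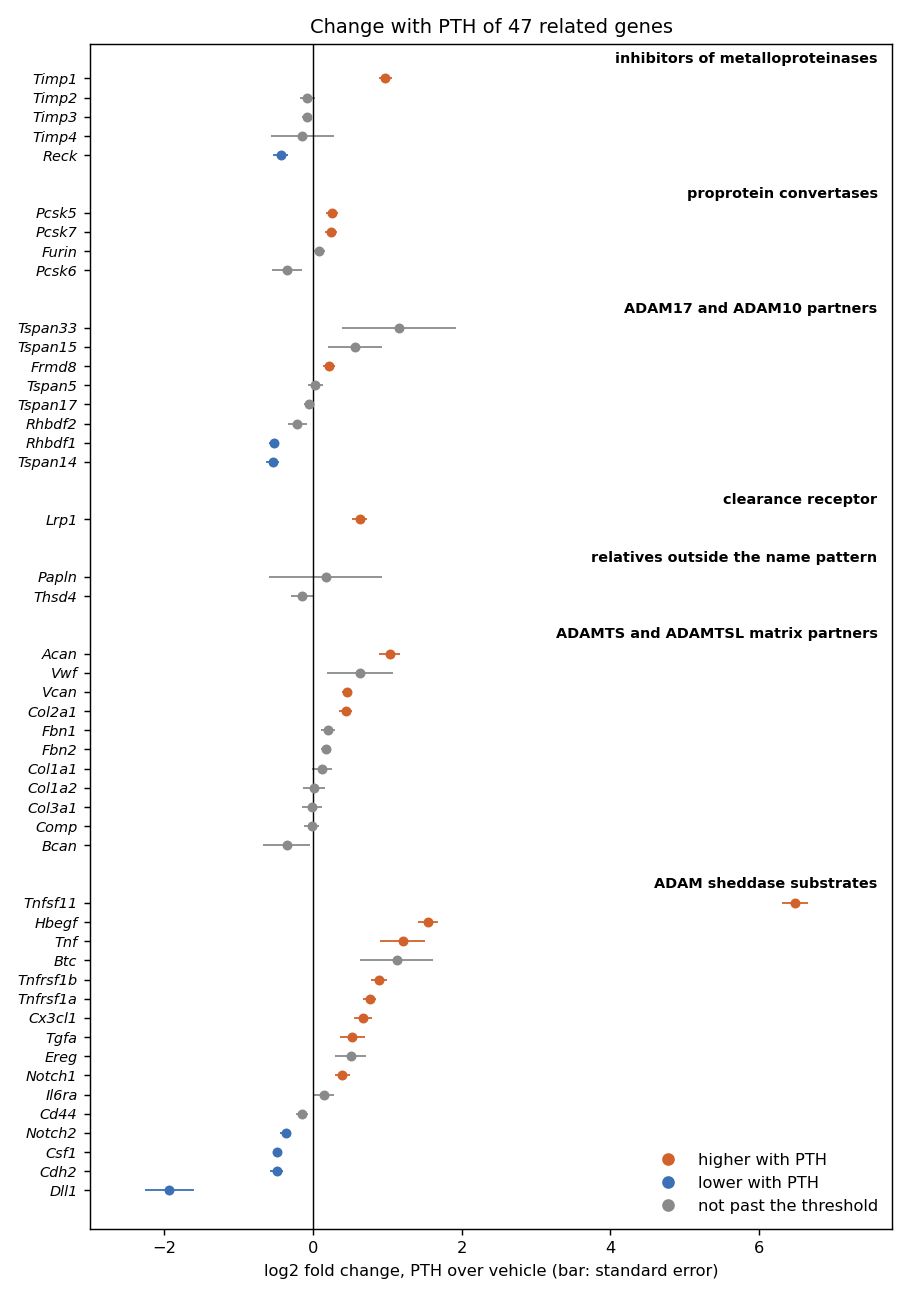
Log2 fold change of PTH over vehicle for the tested related genes by list, with the standard error as a bar and colour for genes past an adjusted p of 0.05. Areg is left out because its vehicle counts were at or near 0. Tnfsf11 lies far to the right at 6.48, Timp1 and Acan lie near 1, and Dll1 lies lowest at -1.94.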

How the data were processed

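The authors deposited a table of counts per gene and sample, made from poly(A)-enriched paired reads that they aligned to GRCm38 with HISAT2 and assembled with StringTie2, whose companion script turns transcript coverage into whole counts. The submitters' processing notes also name DESeq2 and mm10, and tool versions and the strand setting are not given in the sources used here. That script assumes reads of 75 bases unless told otherwise, and the value used is not given.

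Samples were grouped by their titles. All 16736 genes that passed filterByExpr (minimum count 10, minimum total 15) were tested with edgeR 4.0.16 in R 4.3.3 (TMM scaling, two-sided quasi-likelihood test, Benjamini-Hochberg adjustment over all of them, threshold 0.05, no covariates), and CPM used the TMM-scaled libraries. Of several entries with a shared symbol, the most abundant was used. Positions, merged exon lengths and overlaps came from GENCODE M21, and near-identical copies from blastn 2.17.0 (at least 150 bases at 95% identity). Tables and plots were made in Python 3.11.15 with pandas 2.3.3, NumPy 2.4.6 and matplotlib 3.10.9. The test was tried before use on simulated data in which 200 of 16736 genes were changed. There edgeR found 149 of the 200 with 12 false calls, and DESeq2 found 158 with 40 false calls.

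Full values are given for differentially expressed members whose mean reached 1 CPM and for Adam10, Adam17, Adamts1, Adamts4 and Adamts5, and for the largest change each way of each list of related genes. The members and lists were chosen with earlier results of these data known. Alternatives were DESeq2 1.42.0, edgeR with the size factors of DESeq2, a replicate block, omission of the filter, a required log2 fold change of 1, halved counts, counts added up over entries with a shared symbol, and leaving out each sample.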

Additional observations from a re-analysis of the deposited data

Results flagged for a closer look

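In 7 cases a sample stood apart from the other 3 of its treatment by more than Dixon's 95% limit for 4 samples, a limit that chance passes in about 1 in 20 groups. The limit was applied to each treatment of all 37 tested genes, so that some cases would arise by chance. With PTH these were replicate 1 for Adamts3 (9.27 CPM, others 7.67 to 7.94), Adamts6 (9.79 CPM, others 15.7 to 16.6) and Adamtsl3 (159 CPM, others 138 to 141). With vehicle they were replicate 4 for Adamts2 (374 CPM, others 415 to 418), Adamts18 (24.4 CPM, others 16.3 to 17.2), Adamtsl3 (110.0 CPM, others 136 to 142) and Adamtsl4 (24.9 CPM, others 33.6 to 35.1). All 7 cases fell on PTH replicate 1 or vehicle replicate 4, and none of the genes concerned was differentially expressed over all samples.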

How the results depend on the processing

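With DESeq2 in place of edgeR, all 37 tested members had the same direction and side of the threshold, and the same held with counts added up over entries with a shared symbol. Requiring a log2 fold change of 1 left 0 ADAM genes higher, 0 ADAM genes lower and 0 ADAMTS genes lower, with 5 related genes higher and 1 lower. With DESeq2's size factors in edgeR, and with counts halved, 2 ADAMTSL genes were higher. Leaving out each sample in turn gave 2 to 5 ADAM genes higher and 0 to 3 lower, 5 to 6 ADAMTS genes higher and 1 to 5 lower, 1 to 2 ADAMTSL genes higher and 0 lower, and 13 to 17 related genes higher and 7 to 9 lower. Without PTH replicate 1, Adam1a, Adam10, Adam23, Adam33, Adamts12, Adamts17 and Adamts18 passed the threshold. Without PTH replicate 2 Adamts10 did so. The log2 fold changes stayed between 2.59 and 2.66 for Adamts1, 3.62 and 3.78 for Adamts4, -0.94 and -0.87 for Adamts5, 1.65 and 1.74 for Adamts9 and 2.60 and 2.93 for Adamtsl2. The sign turned for 5 genes that were not differentially expressed, and the cause was not tested: with 1 sample left out, the log2 fold change ranged from -0.1422 to 0.0172 for Adam5, from -0.0910 to 0.0165 for Adam12, from -0.1462 to 0.0551 for Adamts2, from -0.1361 to 0.0736 for Adamts8 and from -0.0328 to 0.1266 for Adamts14.

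The numbers did not pair the samples: same-numbered samples had correlations of their deviations between -0.041 and 0.027. With the number as a replicate block, 3 ADAM genes were higher and 1 lower, 5 ADAMTS genes were higher and 3 lower (with Adamts18, adjusted p = 0.037 by edgeR), and 1 ADAMTSL gene was higher. Of the 8 samples, 1 correlated best with its own number.

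Depth limits the 20 untested members and genes such as Adam32, Adam1b and Adamts20, whose counts stayed under 70 in every sample.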
